A study of Mus musculus with 6 samples.

Results

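The mRNA levels of 10 tubulin, stathmin, growth cone and microtubule-binding genes were examined in mouse embryonic stem cells (ESCs). The levels were compared with those in the Neuronal Cells (NCs) derived from ESCs with Retinoic Acid (RA). The genes were chosen by name. They were the tubulin genes Tubb3, Tubb2a, Tubb2b and Tuba1a, the stathmin genes Stmn1, Stmn2, Stmn3 and Stmn4, and the genes Gap43 and Map2, and each matched 1 row of the 23235 rows of the deposited RNA-seq table. Both conditions used the line E14Tg2a, a feeder-independent mouse ESC line, at passages 37 to 40. The ESC condition (3 samples) was kept in medium with Leukemia Inhibitory Factor (LIF), which holds the cells in the pluripotent state. The NC condition (3 samples) consisted of monolayers from which LIF had been withdrawn and which had received 1 μM RA for 48 hours. The sample titles name no deleted or introduced gene for either condition, and they do not describe the genotype of the line itself. The authors' table gives 1 FPKM value (fragments scaled to transcript length and to the number of mapped fragments) per gene and condition, with the 3 samples already combined. The spread between samples is therefore unknown for every value below, no difference between the conditions was tested, and the words higher and lower describe these single values only.

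Microtubules are polymers of paired alpha and beta tubulin, and each of these proteins is encoded by several genes whose products differ mainly in an acidic tail at the carboxyl end. Neurons enrich class III beta tubulin, the product of Tubb3, which is widely used to mark them, and growing axons of the embryonic brain use large amounts of the products of Tuba1a and Tubb2b. Stathmins bind free tubulin and favour the shrinkage of microtubules. STMN1 is a cytosolic protein of many dividing cells, whereas STMN2 (SCG10), STMN3 (SCLIP) and STMN4 (RB3) carry an amino-terminal membrane anchor and are found mostly in neurons. GAP43 is a membrane-bound protein of the growth cone that binds calmodulin, and MAP2 binds along microtubules of the dendrite.

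The coding ends of the beta tubulin genes are shown because they encode the acidic tail in which most of the isotypes differ. Each line gives the last 60 coding bases, 5′ to 3′, from the GENCODE M21 transcript with the longest coding sequence, and the capitals mark the stop codon. Tubb5, the most abundant beta tubulin gene of these cells, is added for comparison.
Tubb3: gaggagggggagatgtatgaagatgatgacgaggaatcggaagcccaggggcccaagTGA
Tubb2b: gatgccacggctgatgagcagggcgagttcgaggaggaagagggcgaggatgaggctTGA
Tubb2a: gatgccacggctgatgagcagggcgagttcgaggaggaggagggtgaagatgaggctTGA
Tubb5: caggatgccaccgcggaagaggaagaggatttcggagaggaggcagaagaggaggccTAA
The printed ends of Tubb2a and Tubb2b differed at a few bases but encode the same amino acids, so the tail does not tell these isotypes apart. The ends of Tubb3 and Tubb5 differed from them and from each other. Over the whole coding sequence Tubb3 was identical to Tubb5 at 82.1% of aligned bases and to Tubb2b at 84.3%.

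No gene of the 10 reached a 2-fold higher value in NCs, and 2 had an at least 2-fold lower one. These 2 were Stmn2, which was 12.1-fold lower, and Tubb3, which was 4.43-fold lower. The other 8 genes lay within 2-fold, 3 of them with the higher and 5 with the lower value in NCs. Among the 12784 genes of the table with a mean FPKM over both conditions of at least 1, a filter that all 10 genes passed, 11.1% were at least 2-fold higher in NCs and 9.93% at least 2-fold lower. The median log2 ratio of NC to ESC FPKM was -0.43 over the 10 genes and -0.04 over those 12784. When the FPKM values of each condition were scaled to the same total, every log2 ratio shifted upward by 0.29 and the median of all genes became 0.26. The share of the changes of at least 2-fold that were higher in NCs then moved from 52.8% to 70.8%. No member changed direction or crossed the 2-fold limit under that scaling.

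**Figure D1:**
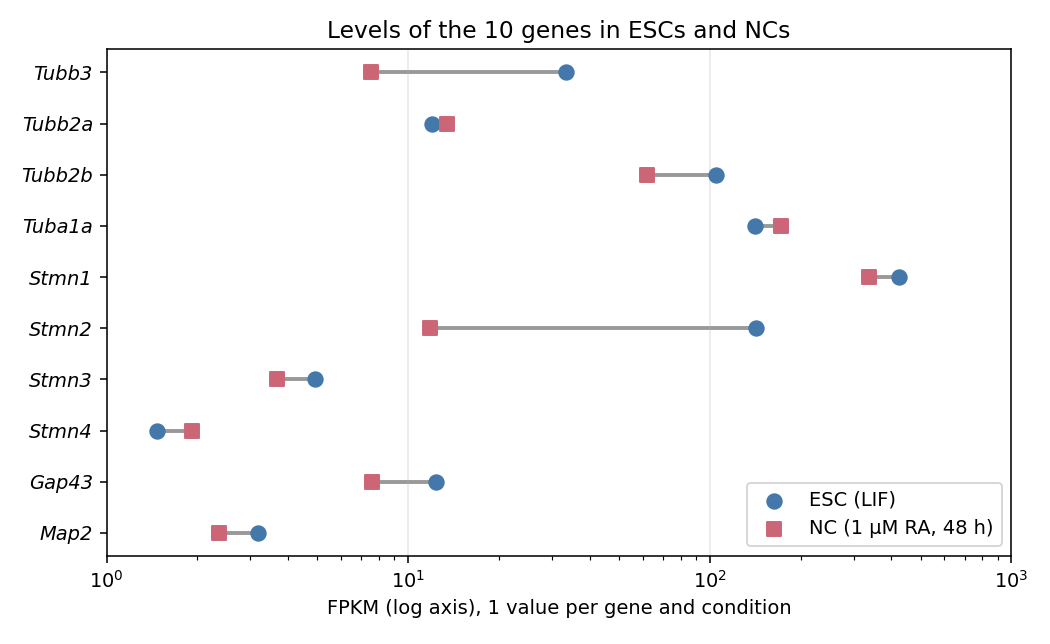
FPKM of each of the 10 genes in ESCs (circles) and NCs (squares) on a log axis, with a line joining the values of a gene. Each point is 1 value for 3 combined samples, so no error bars can be drawn, and the longest lines belong to Stmn2 (142 to 11.8) and Tubb3 (33.4 to 7.54).

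The tubulin genes did not move as a group. Tubb3 (chr8:123411424-123422015, plus strand of GRCm38, 4 exons) had 33.4 FPKM in ESCs against 7.54 in NCs. Its log2 ratio was -2.15, and 2.89% of all genes past the filter had a lower one. In ESCs the level of Tubb3 was above that of 76.9% of these genes, and in NCs above that of 38.0%. Tubb2b (chr13:34126748-34130466, minus strand, 4 exons) had 105 FPKM in ESCs against 62.0 in NCs, a 1.70-fold lower value. Tubb2a (chr13:34074274-34078007, minus strand, 4 exons), which lies beside Tubb2b on the same strand, had 12.0 FPKM in ESCs against 13.4 in NCs, a log2 ratio of 0.17. Tuba1a (chr15:98949837-98953703, minus strand, 4 exons) had 141 FPKM in ESCs against 172 in NCs, a log2 ratio of 0.29. Tubb2b was thus the most abundant of the class II and class III genes in both conditions, and Tubb3 passed from above Tubb2a in ESCs to below it in NCs.

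Reads of Tubb2a and Tubb2b are hard to assign to their gene. Their coding sequences have the same length of 1338 bases and differ at 47 of them, and 1 stretch of 551 coding bases is identical. The 90 coding bases with the most differences, bases 49 to 138 of the coding sequence, are printed with the 13 differing bases in capitals.
Tubb2a: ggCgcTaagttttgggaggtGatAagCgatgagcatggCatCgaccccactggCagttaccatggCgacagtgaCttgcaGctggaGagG
Tubb2b: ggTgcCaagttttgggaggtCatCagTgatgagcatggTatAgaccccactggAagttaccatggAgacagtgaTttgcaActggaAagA
Of the 50-base words in the transcripts of Tubb2a, 45.6% also occurred in those of Tubb2b, whereas no such word of Tubb3 occurred in another gene. Added together, Tubb2a and Tubb2b had 117 FPKM in ESCs against 75.4 in NCs, a log2 ratio of -0.64, and most of this sum is Tubb2b. How reads were divided between the copies was not tested. Tuba1a shared 75.5% of its words with other genes, and its coding sequence was identical to that of Tuba1b at 98.3% of bases. The sum of Tuba1a, Tuba1b and Tuba1c was 475 FPKM in ESCs against 490.04 in NCs, a log2 ratio of 0.05.

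The beta tubulin members held small shares of the beta tubulin mRNA, and Tuba1a a larger share of the alpha tubulin mRNA. The 8 beta tubulin genes summed to 1721 FPKM in ESCs against 1350 in NCs. Tubb5, the general beta tubulin gene of dividing cells, held 58.4% of this sum in ESCs and 65.2% in NCs, and Tubb4b held 25.7% and 19.1%. Tubb3 held 1.94% in ESCs and 0.559% in NCs. Tubb2b held 6.12% and 4.59%, and Tubb2a 0.696% and 0.996%. The 8 alpha tubulin genes summed to 577 FPKM in ESCs against 536 in NCs. Tuba1a held 24.5% of that sum in ESCs and 32.1% in NCs, second in both to Tuba1b with 44.9% and 47.8%.

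Among the 12 alpha and beta tubulin genes that were not members, 9 passed the filter, of which 1 was at least 2-fold higher and 1 at least 2-fold lower. Tuba4a was the lower one, with 68.5 FPKM in ESCs against 20.03 in NCs, although 34.6% of its 50-base words are also those of Stk16, a gene that overlaps it on the opposite strand. Tuba3b was the higher one, with 0.853 FPKM in ESCs against 1.86 in NCs, and 27.4% of its words were shared with Tuba3a, which had 31.9 FPKM in ESCs against 23.5 in NCs. Tuba1c had 74.5 and 61.6 FPKM, Tubb6 had 116 and 121 FPKM, and Tubb4a had 6.83 and 7.88 FPKM, each within 2-fold. The FPKM of Tuba8, Tubal3 and Tubb1 stayed below 1 in both conditions. The median log2 ratio of the 9 genes was -0.19, and it became 0.10 when the conditions were scaled to the same total.

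**Figure D2:**
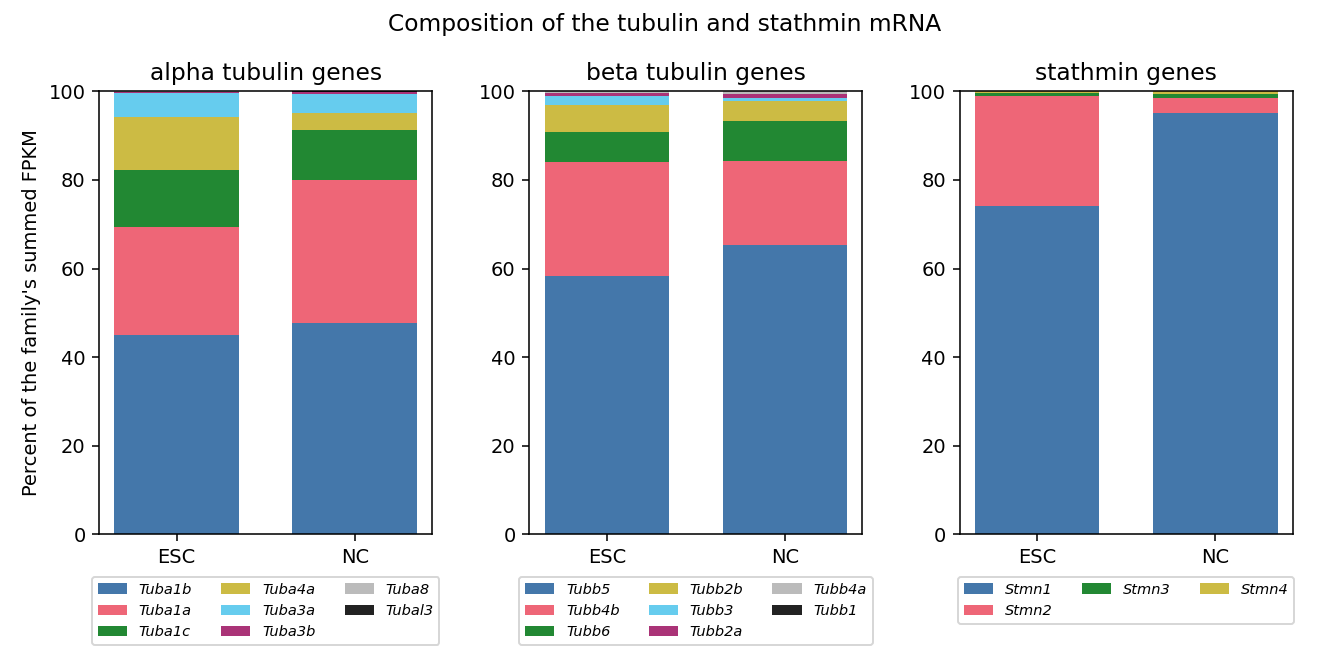
Percent of the summed FPKM of the alpha tubulin (left), beta tubulin (middle) and stathmin (right) genes held by each gene in ESCs and NCs. The Stmn2 segment shrinks from 24.8% to 3.33% and the Tubb3 segment from 1.94% to 0.559%, while Tuba1a grows from 24.5% to 32.1%.

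Stmn2 showed the largest difference of all 10 genes. Stmn2 (chr3:8509360-8561606, plus strand, 5 exons) had 142 FPKM in ESCs, about the level of Tuba1a and above that of 94.9% of the genes past the filter. In NCs it had 11.8 FPKM, above 50.4% of them. Its log2 ratio was -3.59, and 0.970% of these genes had a lower one. Stmn1 (chr4:134468320-134473843, plus strand, 5 exons) was the most abundant of the 10 genes in both conditions, with 425 FPKM in ESCs against 337 in NCs, a 1.26-fold lower value. Stmn3 (chr2:181306459-181314500, minus strand, 5 exons) had 4.90 FPKM in ESCs against 3.66 in NCs, a log2 ratio of -0.42. Stmn4 (chr14:66344296-66361680, plus strand, 7 exons) was the least abundant, with 1.47 FPKM in ESCs against 1.92 in NCs, and its log2 ratio of 0.38 was the highest of the 10. The 4 genes summed to 574 FPKM in ESCs against 354 in NCs. Stmn1 held 74.1% of this sum in ESCs and 95.1% in NCs, and Stmn2 held 24.8% and 3.33%.

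The stathmin genes could be told apart better than the class II tubulin genes. The 60 coding bases of Stmn1 that best match the other stathmin genes without gaps are printed beside their matches. Capitals mark the 41 bases that all 4 share. The stretch was picked for likeness, so it does not measure how far the genes have diverged.
Stmn1: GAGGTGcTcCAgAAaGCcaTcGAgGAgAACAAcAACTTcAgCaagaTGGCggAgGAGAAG
Stmn2: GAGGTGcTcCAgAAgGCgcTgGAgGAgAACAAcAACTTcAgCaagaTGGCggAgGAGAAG
Stmn3: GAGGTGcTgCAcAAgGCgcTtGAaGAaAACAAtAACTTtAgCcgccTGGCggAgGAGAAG
Stmn4: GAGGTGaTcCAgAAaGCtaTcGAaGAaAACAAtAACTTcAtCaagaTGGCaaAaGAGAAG
The pairwise identity of the 4 coding sequences ran from 68.5% for Stmn1 and Stmn3 to 73.5% for Stmn2 and Stmn3. No 50-base word of Stmn3 or Stmn4 occurred in another gene, and 0.893% of those of Stmn2 did. Stmn1 shared 18.9% of its words with other genes, nearly all of them with Gm11223.

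Gap43 and Map2 were both lower in NCs within the 2-fold limit. Gap43 (chr16:42248442-42340651, minus strand, 3 exons) had 12.3 FPKM in ESCs against 7.57 in NCs, a 1.63-fold lower value with a log2 ratio of -0.70. Map2 (chr1:66175273-66442583, plus strand, 15 exons in the transcript with the longest coding sequence) had 3.18 FPKM in ESCs against 2.35 in NCs, a log2 ratio of -0.43. The FPKM of Map2 is a single value for many annotated isoforms, so the long dendritic and the short forms cannot be told apart here.

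In ESCs the order of the levels, from the highest, was Stmn1, Stmn2, Tuba1a, Tubb2b, Tubb3, Gap43, Tubb2a, Stmn3, Map2 and Stmn4. In NCs it was Stmn1, Tuba1a, Tubb2b, Tubb2a, Stmn2, Gap43, Tubb3, Stmn3, Map2 and Stmn4. Stmn2 moved from rank 2 to rank 5 and Tubb3 from rank 5 to rank 7, and the first and the last 3 places were held by the same genes in both. Whether neighbours in these orders, such as Stmn2 and Tuba1a in ESCs or Gap43 and Tubb3 in NCs, differ beyond the spread of the samples cannot be given from 1 value each.

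**Figure D3:**
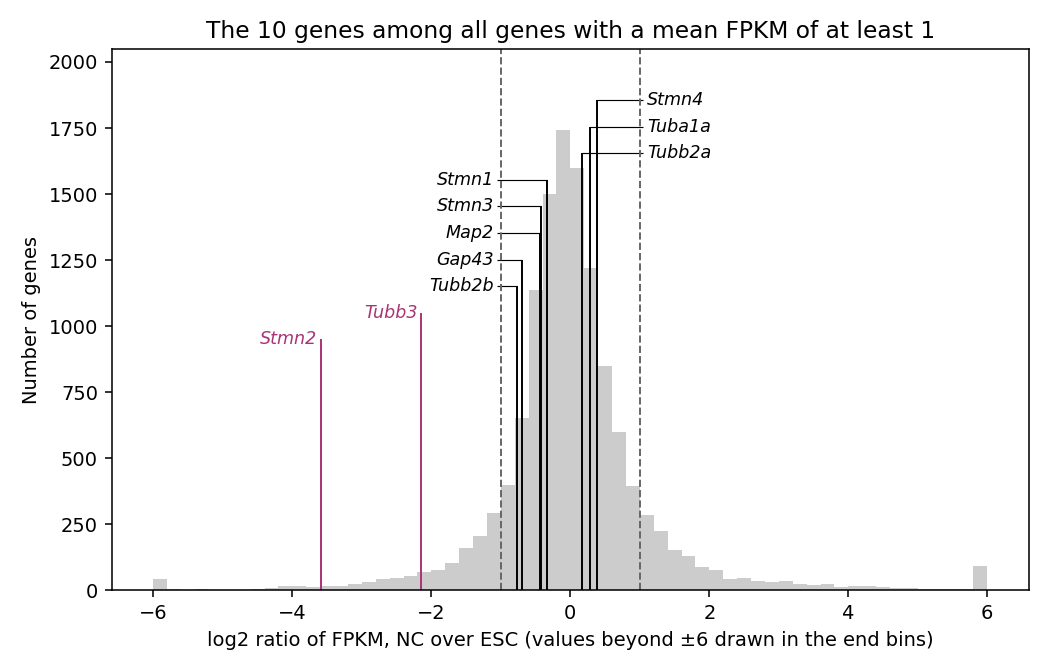
Number of genes (vertical axis) by log2 ratio of NC to ESC FPKM (horizontal axis) for the 12784 genes with a mean FPKM of at least 1, genes listed at 0 in 1 condition included in the end bins, with the 10 genes marked by vertical lines whose heights carry no value. Dashed lines mark a 2-fold difference, beyond which lie Tubb3 at -2.15 and Stmn2 at -3.59.

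The number of fragments behind a value was judged from the lowest FPKM values, because a gene with a single fragment takes a fixed step. In a transcript with 1 kb open to alignment, taking fragments of 200 bases, the 2 most frequent steps were 0.0119 and 0.0138 FPKM in ESCs and 0.00716 and 0.0134 FPKM in NCs. At the larger step, the lowest value of the 10 genes, that of Stmn4 in ESCs, stood for at least about 115 fragments, and its NC value for about 154. Stmn3 had about 331 and 255 fragments, and Tubb3 about 4030 and 936. Counting error was thus small beside the difference of Tubb3 or Stmn2, while the spread between samples is not covered by these numbers.

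The genes nearest to Tubb3 over both conditions were Zswim1, with 33.3 FPKM in ESCs against 8.15 in NCs, Kank3, with 30.3 and 7.64 FPKM, and Snora69, with 32.8 and 6.75 FPKM. The distance was measured on log2(FPKM + 1) over 2 values only and ran from 0.0989 to 0.143. For Stmn4 the nearest genes were Acot11, with 1.45 and 1.93 FPKM, Kctd21, with 1.49 and 1.95 FPKM, and Shisa7, with 1.498 and 1.89 FPKM.

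Genes whose products act on the same microtubules were counted by role. Of the 14 proteins that bind along the lattice, like MAP2, 12 passed the filter, of which none was at least 2-fold higher and 4 were at least 2-fold lower in NCs. The largest difference was that of Map7d3, with 4.54 FPKM in ESCs against 1.06 in NCs. The others were Map1a with 2.24 and 0.720 FPKM, Map7 with 19.7 and 6.94 FPKM, and Mapt, which encodes tau, with 1.91 and 0.871 FPKM, the last 3 being named after their values were seen. Map4, the most abundant of them, had 61.9 and 54.95 FPKM, and Map7d1 had the highest ratio, with 27.5 and 36.4 FPKM. The median log2 ratio of the 12 genes was -0.60. The 2 genes below the filter, named after their values were seen, both had the higher FPKM in NCs. They were Dcx, a doublecortin gene of young neurons, with 0.0140 and 0.334 FPKM, and its relative Dclk1, with 0.431 and 1.43 FPKM. With both included the median was -0.26.

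The tubulin folding cofactors and severing enzymes past the filter lay within 2-fold. All 7 genes listed as folding cofactors passed the filter, with a median log2 ratio of -0.05. The median became 0.24 when the conditions were scaled to the same total. Tbca, which holds beta tubulin during folding, was the most abundant, with 279 FPKM in ESCs against 286 in NCs. Tbcc had the highest ratio, with 5.88 and 9.79 FPKM, and was the only cofactor past 2-fold when scaled to the same total. Ttc5 had the lowest ratio, with 35.8 and 22.4 FPKM. It was listed with the cofactors but takes part instead in the decay of tubulin mRNA when free tubulin is in excess. Of 7 severing enzyme genes 6 passed the filter, with a median log2 ratio of 0.13. The other, Fign, which lay just below the filter and is named after its values were seen, was 2.92-fold higher in NCs, with 0.502 and 1.47 FPKM. Fignl1 was the most abundant, with 43.8 and 54.1 FPKM, and Katnal1 had the highest ratio, with 2.13 and 2.76 FPKM. The 4 genes of gamma, delta and epsilon tubulin, which serve nucleation and the centriole, were also within 2-fold. Tubg1 had 55.1 and 63.4 FPKM, Tubg2 0.886 and 1.21 FPKM, and Tube1 11.02 and 7.57 FPKM.

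The end-binding and modifying proteins lay mostly on the higher side in NCs. Of 11 end-binding genes, 8 had the higher FPKM in NCs and 1, Clip1, was at least 2-fold higher, with 4.16 FPKM in ESCs against 9.17 in NCs. With the conditions scaled to the same total 3 were at least 2-fold higher. Camsap3, a minus-end binder, had the lowest ratio, with 21.8 and 11.9 FPKM, and Ckap5, a microtubule polymerase, was the most abundant, with 53.4 and 44.3 FPKM. Of 13 tubulin-modifying enzyme genes past the filter, 11 had the higher FPKM in NCs and 2 were at least 2-fold higher. These were Vash1, 2.74-fold higher from 3.28 FPKM in ESCs, and Vash2, with 3.89 and 9.07 FPKM, of which Vash2 was named after its values were seen. Both encode enzymes that remove the terminal tyrosine of alpha tubulin. Hdac6, a deacetylase of alpha tubulin, had 48.3 and 25.6 FPKM. The median log2 ratio was 0.40 for the end-binding and 0.37 for the modifying genes.

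Growth cone genes other than Gap43 mostly had higher values in NCs. Of the 10 listed, 8 had the higher FPKM in NCs, 3 of them at least 2-fold, and the median log2 ratio was 0.95. The count of 3 became 7 with the conditions scaled to the same total and 1 among genes with a mean FPKM of at least 5. Dpysl4, a member of the collapsin response mediator family, had the highest ratio, with 1.83 FPKM in ESCs against 7.98 in NCs. The other 2 past 2-fold, named after their values were seen, were Cap2, 2.83-fold higher from 1.41 FPKM in ESCs, and Dpysl5, with 9.73 and 20.7 FPKM. Marcksl1, the most abundant, had 201 and 386 FPKM, and Crmp1 had the lowest ratio, with 28.7 and 20.4 FPKM.

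**Figure D4:**
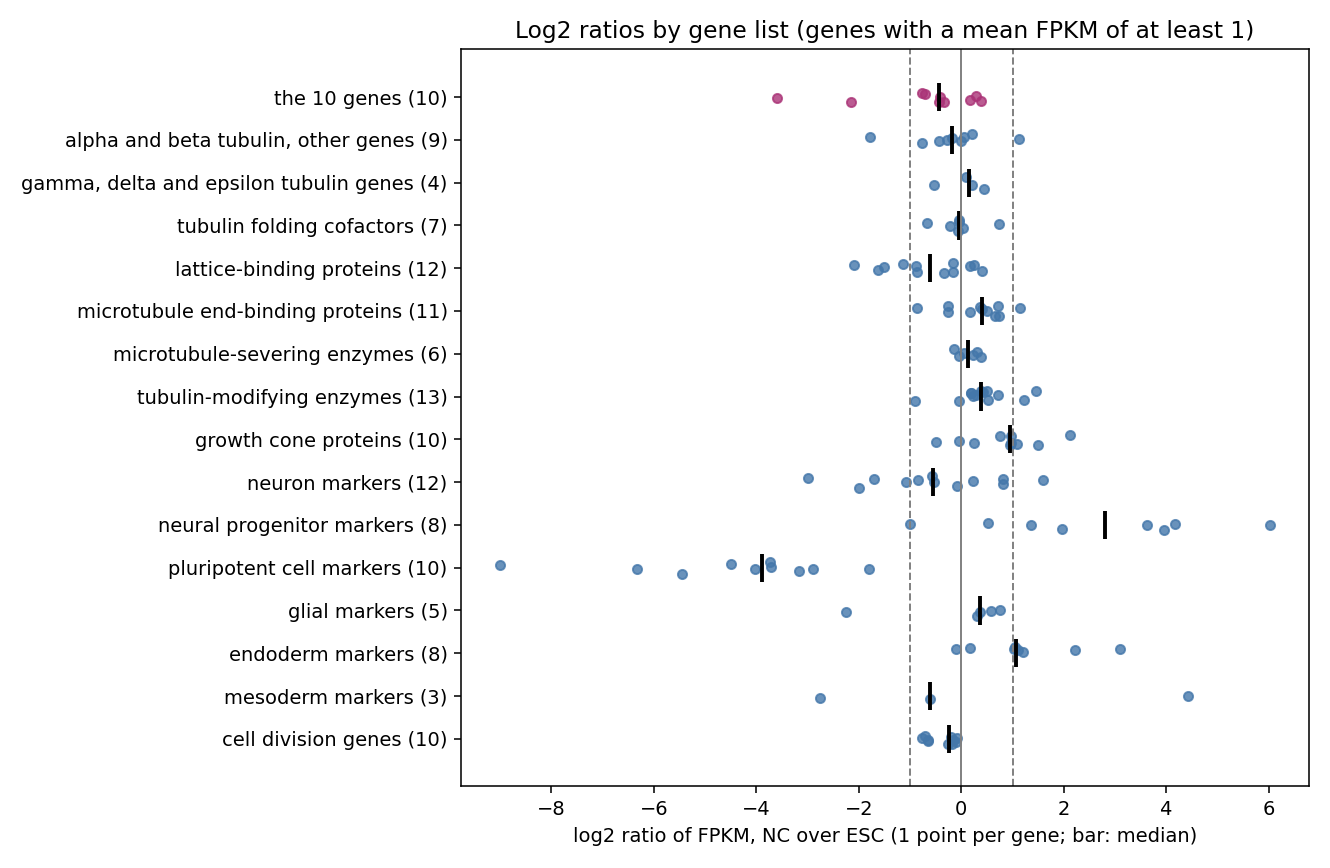
Log2 ratio of NC to ESC FPKM (horizontal axis) for each gene with a mean FPKM of at least 1, by gene list, with the number of genes in brackets, a black bar at the median and dashed lines at a 2-fold difference. The medians run from -3.88 for the pluripotent cell markers to 2.79 for the neural progenitor markers, that of the 10 genes is -0.43, and those of the other tubulin genes, folding cofactors and cell division genes turn above 0 when the conditions are scaled to the same total.

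Markers of cell types were read beside these values because each condition is a culture of many cells, in which fewer cells of a type and less RNA per cell cannot be told apart. The label of the NC condition was checked against 20 neuron markers, of which 12 passed the filter. Of these 12, 8 had the lower and 4 the higher FPKM in NCs, with a median log2 ratio of -0.55, so that as a list they were not higher in the condition named for neurons. The 8 markers below the filter were also lower in NCs, but several of them rest on very few fragments. None of the 20 exceeded 16.0 FPKM in NCs, and their sum was 69.8 FPKM in ESCs against 50.8 in NCs. At least 2-fold lower were 4 of the 12, and at least 2-fold higher was 1. With the conditions scaled to the same total these counts were 3 lower and 3 higher, and the median was -0.26. Among neuron markers with a mean FPKM of at least 5, 1 was at least 2-fold lower and 0 were at least 2-fold higher, with a median of -0.53. Elavl3, an RNA-binding protein of neurons, had the lowest ratio, with 5.03 FPKM in ESCs against 0.632 in NCs. The other 3 lower ones, named after their values were seen, were Elavl2 with 15.2 and 7.18 FPKM, Nefl with 5.04 and 1.55 FPKM, and Syp with 3.88 and 0.968 FPKM. Nrcam, a cell adhesion molecule, was the higher one, with 0.668 and 2.03 FPKM, and Ina, an intermediate filament of neurons, had 14.9 and 10.3 FPKM.

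Neural progenitor markers were mostly higher in NCs. Of 8 past the filter, 6 were at least 2-fold higher and none at least 2-fold lower, and the sum over all 10 was 57.9 FPKM in ESCs against 215 in NCs. Zic1 had the highest ratio, with 0.0717 and 4.68 FPKM, and Notch1 had the lowest ratio, with 12.8 and 6.42 FPKM. Msi1 had the highest mean over both conditions, with 22.8 and 58.0 FPKM. Pax6, named after its values were seen, was above Msi1 in NCs, with 3.64 and 65.2 FPKM. All 10 pluripotent cell markers were at least 2-fold lower, Pou5f1 having 832 and 37.1 FPKM and Tdgf1 564 and 1.098 FPKM, their sum being 2494 FPKM in ESCs against 167 in NCs, with none at 0 in NCs. The largest part of the NC sum was Sox2, named after its values were seen, with 258 FPKM in ESCs against 74.1 in NCs. Endoderm markers were at least 2-fold higher for 6 of the 8 past the filter, with a sum over the 10 of 22.1 FPKM in ESCs against 47.0 in NCs, and Foxa2 had 0.617 and 5.24 FPKM, Dab2 9.004 and 19.3 FPKM, and Amn, with the lowest ratio, 3.07 and 2.87 FPKM. The 10 glial markers summed to 21.8 and 22.03 FPKM, and 1 of the 5 past the filter, Aldh1l1, was at least 2-fold lower, with 6.25 and 1.31 FPKM. Slc1a3, the most abundant glial marker, had 8.20 and 10.2 FPKM, and Sox10, with the highest ratio, 1.16 and 1.95 FPKM. The 10 mesoderm markers summed to 41.1 and 14.4 FPKM, and of the 3 past the filter Meox1 was higher, with 0.253 and 5.43 FPKM, and Tcf15 lower, with 36.4 and 5.37 FPKM. Tcf15 made up most of the ESC sum, so the lower NC sum is that of this gene and does not describe the other mesoderm markers. The part of these cell types in the values of the 10 genes was not tested.

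Genes of cell division were read for Stmn1 and the tubulin genes of dividing cells. All 10 had the lower FPKM in NCs, all within 2-fold, with a median log2 ratio of -0.24 that became 0.06 when the conditions were scaled to the same total. Pcna, the most abundant, had 374 FPKM in ESCs against 332 in NCs, and Top2a had the lowest ratio, with 265 and 156 FPKM. The log2 ratio of Stmn1, -0.34, was close to their median, and under that scaling it was -0.04. Gap43 at -0.70, Stmn3 at -0.42 and Map2 at -0.43 also lay within the range of the 10 cell division genes. A value in that range is therefore not particular to Stmn1, and a link to cell division was not tested.

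The start regions of 5 members, Tubb3, Tubb2a, Tuba1a, Stmn3 and Map2, were matched in RefSeq (GRCm38.p6), each with 250 bases before the transcription start and 50 after it. They were searched on both strands for the GC box (GGGCGG), the hexamer AGGTCA bound by nuclear receptors such as RAR and RXR, the Nur77 element AAAGGTCA, which contains that hexamer, the cyclic AMP response element TGACGTCA, the TATA box (TATAAA) and the E-box (CANNTG). The GC box occurred in 4 of the 5, all but Stmn3, and in 35.7% of all 32851 start regions. Those 4 regions held from 59% (Tuba1a) to 77.7% (Map2) G and C, that of Stmn3 49.7%, and the median start region 52.7%. Whether the GC box was more frequent than this base composition gives was not tested. AGGTCA occurred in none of the 5 and in 16.3% of all. TGACGTCA and TATAAA each occurred once, in Tubb2a, and in 1.79% and 13.6% of all. An E-box occurred in Tubb2a, Tuba1a and Stmn3 and in 72.3% of all. Sequence before the start is printed, with these motifs in capitals, for the 2 beta tubulin genes matched, Tubb3, which was lower in NCs, and Tubb2a, which lay within 2-fold. The Tubb3 sequence (chr8:123411303-123411423, plus strand, 121 bases) ends before the first annotated GENCODE start, and the Tubb2a sequence (chr13:34078009-34078128, minus strand) covers the 120 bases before the RefSeq start.
Tubb3: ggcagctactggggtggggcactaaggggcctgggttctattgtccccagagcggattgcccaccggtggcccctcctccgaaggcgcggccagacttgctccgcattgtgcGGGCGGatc
Tubb2a: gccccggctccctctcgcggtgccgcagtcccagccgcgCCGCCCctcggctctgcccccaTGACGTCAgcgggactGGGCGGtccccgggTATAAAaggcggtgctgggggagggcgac
The Tubb3 stretch holds 1 GC box, and the Tubb2a stretch holds 2 GC boxes, the cyclic AMP response element and the TATA box. The 2 stretches do not lie at the same distance from the RefSeq start. Over the whole windows of 300 bases, Tubb3 and Tubb2a each held 2 GC boxes. These matches describe the letters of the windows and do not show that a factor binds there.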

How the data were processed

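RNA was sequenced from 3 ESC and 3 NC samples. The authors mapped the reads to mm10 with TopHat 2.0.8 and Bowtie 2.1.0, assembled transcripts with Cufflinks 2.0.2, joined the assemblies in Cuffmerge and ran Cuffdiff on both conditions. The deposited table holds the authors' FPKM, a single value for each gene in each condition, and 0 columns hold values of single samples. The heading of the NC column reads FPK and was taken as FPKM. The authors' own fold changes, test statistics, p-values and q-values were not used.

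Log2 ratios were computed without a pseudocount, with a 2-fold limit and a mean FPKM of at least 1. Other settings were pseudocounts of 0.1 and 1, scaling both conditions to an equal sum, centring on the median, other filters and limits, and sums over near-identical copies. The members and lists were chosen with earlier results of these data known. Besides the members and the other tubulin genes, each list named its highest and lowest ratio and the gene with the highest mean FPKM. The 3 nearest genes were named for Tubb3 and for the member with the highest ratio. The values of 1 gene that this rule names are not reported here. Older symbols were matched through RefSeq synonyms. Positions, coding sequences and 50-base words came from GENCODE M21 (GRCm38, the assembly of mm10), start regions from RefSeq. The computation was tested on simulated data. Python 3.11.15, numpy 2.4.6, pandas 2.3.3, Biopython 1.88 and matplotlib 3.10.9 were used.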

Additional observations from a re-analysis of the deposited data

How the results depend on the processing

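All 10 members kept their direction and their side of the 2-fold limit with pseudocounts of 0.1 and 1, with scaling to the same total and with centring on the median. Their log2 ratios moved by at most 0.02 with the pseudocount of 0.1, by at most 0.14 with that of 1, by 0.29 with scaling and by 0.04 with centring. With a limit of 1.5-fold, 4 members were lower in place of 2, Tubb2b and Gap43 being added, beside 18.8% of all genes. Among all genes, the share at least 2-fold higher went from 11.1% to 19.7% without a filter and to 6.83% at a mean FPKM of at least 5, and a 4-fold limit left 4.20% higher and 3.33% lower. With the pseudocount of 1, 2 lattice-binding genes in place of 4 were at least 2-fold lower and 3 endoderm markers in place of 6 at least 2-fold higher, and Clip1, Nrcam and Tuba3b no longer reached 2-fold. Without a filter 7 neuron markers in place of 4 were at least 2-fold lower, and 2 lattice-binding genes and 1 severing enzyme in place of 0 were at least 2-fold higher. At a mean FPKM of at least 5, 1 neuron marker in place of 4 was at least 2-fold lower. With scaling, the genes at least 2-fold higher were 7 in place of 3 for the growth cone, 3 in place of 1 for the end-binding genes and the neuron markers, and 1 in place of 0 for the folding cofactors and the glial markers. Added to its near-identical copies, an alternative chosen after the data were seen, Tubb2a turned from a log2 ratio of 0.17 to -0.64 and Tuba1a went from 0.29 to 0.05, because the sums hold other genes. Of the list medians, those of the other tubulin genes, the folding cofactors and the cell division genes turned from lower to higher with scaling. No row name holds several symbols, so counting such rows changed no share. No paired analysis was possible because the table holds 1 value per condition, and for the same reason no sample could be left out.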
